A study of Homo sapiens with 15 samples.

Results

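The 8 genes that encode the troponin subunits were followed through 15 RNA sequencing libraries of human atrial cardiomyocytes in which ATRNL1, which encodes attractin-like protein 1, had been lowered or raised. The members were chosen by symbol, TNNT1, TNNT2, TNNT3, TNNI1, TNNI2, TNNI3, TNNC1 and TNNC2, and all 8 were found among the 58780 rows of the table that carried a gene identifier. The cells came from H7, an established human embryonic stem cell line labelled wild type, and were differentiated in suspension as spheroids with TTNPB and retinoic acid, both of which activate retinoic acid receptors, before dissociation at day 17. There were 5 groups of 3 libraries. Cells of the first 3 groups received siRNA, which was a scramble control, siRNA-1 against ATRNL1 or siRNA-2 against ATRNL1. Cells of the other two groups were transduced with a control lentivirus or with a lentivirus for the short isoform of ATRNL1, and the labels' protocols state puromycin selection for transduced cells. All groups come from a single line. The sources used here give neither the promoter of the vector nor the days of treatment and harvest. Whether the 3 libraries of a group are separate cultures is not stated in the labels, so p-values measure the spread between libraries only, which may be technical.

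Troponin is the calcium switch of striated muscle. Troponin C binds calcium, troponin I holds actin and myosin apart at rest, and troponin T anchors both to tropomyosin on the thin filament. Heart muscle uses TNNC1, TNNI3 and TNNT2. TNNI1, the slow skeletal troponin I, is the main form of the fetal heart and is replaced by TNNI3 as the heart matures, so the ratio of TNNI1 to TNNI3 is often read as a measure of maturity in cardiomyocytes made from stem cells. TNNT1 encodes slow skeletal troponin T, and TNNT3, TNNI2 and TNNC2 encode the fast skeletal forms.

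Library totals ran from 37078568 to 108663135 counts. ATRNL1 was at 13.8 to 16.9 counts-per-million (CPM) in scramble libraries, 8.26 to 10.2 CPM with siRNA-1 and 4.61 to 5.41 CPM with siRNA-2. It was at 27.1 to 29.2 CPM with the control lentivirus and at 636 to 927 CPM with the ATRNL1 lentivirus, so the libraries followed their labels. Lentiviral and siRNA libraries separated on the first principal component, with 58.4% of the variance. Over 7258 genes above 20 CPM, 1 library of each group most often lay between the others. This was library 3 in scramble (74.4% of genes) and with the ATRNL1 lentivirus (51.6%). It was library 2 with the control lentivirus (57.4%), with siRNA-1 (52.3%) and with siRNA-2 (40.4%). In the 4 groups other than scramble, the number in a sample title joins the numbers of the other two titles, and whether such samples share material is not stated. If they do, the libraries of a group are less independent than the tests assume and p-values are too small. Each result was therefore also computed without each library in turn. The 11 cardiomyocyte markers, among them MYH6, MYH7 and RYR2, summed to 40695 to 54340 CPM in each library. The 10 atrial markers summed to 2693 to 4505 CPM and were highest with the control lentivirus, at 4439 to 4505 CPM. The 6 ventricular markers, which include MYH7, summed to 6219 to 7430 CPM in scramble, 8223 to 9866 with siRNA-1 and 11046 to 11270 with siRNA-2. They summed to 9870 to 11666 CPM with the control lentivirus and 15376 to 16614 CPM with the ATRNL1 lentivirus.

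The members lie on 5 chromosomes of the GRCh 38 build, 6 of them in pairs of a troponin I and a troponin T gene. TNNI1 (chr1:201403768-201429866) and TNNT2 (chr1:201359008-201377762) are 26005 bases apart. TNNI3 (chr19:55151767-55157773) and TNNT1 (chr19:55132794-55149354) are 2412 bases apart with no annotated gene between them. TNNI2 (chr11:1838989-1841680) and TNNT3 (chr11:1919562-1938706) are 77881 bases apart. TNNC1 (chr3:52451102-52454070) and TNNC2 (chr20:45823214-45833745) stand alone. Exons of TNNI3 share 496 of 2034 bases with AC010327.1, a gene annotated on the same strand, which had 0 counts in every library. If the counting dropped reads that fit both genes, TNNI3 was undercounted in all libraries alike, and the counting rule is not given in the sources used here. TNNT2 shares 81 bases with LAD1 and TNNI1 shares 300 with a pseudogene on the opposite strand.

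The sequence before the start of transcription is shown for the 3 members with a RefSeq promoter entry on GRCh 38.p14. They are the neighbours TNNI3 and TNNT1, which were both called in 5 of the 7 comparisons below, and TNNT2, whose level moved little. Each run holds the 250 bases before the start, 5′ to 3′ on the minus strand, on which all 3 genes are read. The RefSeq start of each lies inside the gene span given above, so the 3′ part of each run lies within that span. Positions below count from the RefSeq start. Capitals mark matches on either strand to 4 motifs named in muscle promoters. The TATA box was searched as TATAAA. The GATA element was searched as AGATAA. For the M-CAT element the letters were CATTCC. For the E-box they were CANNTG, where N is any base. Overlapping matches were counted each.
TNNI3, chr19:55157733-55157982: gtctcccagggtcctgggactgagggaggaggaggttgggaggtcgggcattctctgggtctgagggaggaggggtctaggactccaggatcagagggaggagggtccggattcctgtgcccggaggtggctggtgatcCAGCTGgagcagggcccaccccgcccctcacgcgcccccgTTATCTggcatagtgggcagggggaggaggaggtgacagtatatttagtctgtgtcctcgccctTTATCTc
TNNT1, chr19:55149207-55149456: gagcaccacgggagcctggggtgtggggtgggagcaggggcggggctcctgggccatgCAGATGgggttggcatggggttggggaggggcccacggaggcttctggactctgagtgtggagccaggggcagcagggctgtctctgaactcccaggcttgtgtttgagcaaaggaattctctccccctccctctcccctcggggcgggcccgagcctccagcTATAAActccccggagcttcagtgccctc
TNNT2, chr1:201377681-201377930: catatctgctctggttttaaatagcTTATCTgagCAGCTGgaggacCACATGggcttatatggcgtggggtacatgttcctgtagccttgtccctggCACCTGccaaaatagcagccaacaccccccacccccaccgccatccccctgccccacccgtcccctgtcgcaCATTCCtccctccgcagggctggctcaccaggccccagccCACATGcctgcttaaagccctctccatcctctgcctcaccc

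The neighbours TNNI3 and TNNT1 hold different letters. TNNI3 has GATA matches that begin 71 and 7 bases before the start and no TATA box letters. TNNT1 has the TATA box letters 29 bases before the start and no GATA match. TNNT2 has a GATA match at 225, an M-CAT match at 81 and 4 E-box matches, against 1 E-box match in each of the others. Of 35116 RefSeq promoters of the same length, 10.7% hold the TATA box letters, 9.17% the GATA letters, 11.9% the M-CAT letters and 61.8% an E-box. The letters TAAAAATA, for MEF2, and TNAAGGTCA, for estrogen-related receptors, were found in none of the 3 windows and are held by 2.09% and 0.85% of promoters. Each match is a description of these letters only. GC content was 63.6% for TNNI3, 66.8% for TNNT1 and 60.4% for TNNT2, against a median of 58.0% over all promoters.

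The cells used cardiac troponin T and C almost alone and mostly the slow skeletal form of troponin I. TNNT2 took 99.2% to 99.9% of all troponin T counts on the group means and TNNC2 at most 0.104% of troponin C counts. TNNI1 took 92.5% ± 1.01 (SD, n = 3) of troponin I counts in scramble cells, and TNNI3 took 7.48% ± 1.00. Levels of different genes can be compared only per length, and here the result depends on which length is used. Per kilobase of all annotated exons, scramble cells had 448 CPM of TNNC1, 413 of TNNT2, 128 of TNNI1 and 38.0 of TNNI3. Per kilobase of the shortest principal transcript, the same cells had 2673 CPM of TNNT2, 876 of TNNI1, 733 of TNNC1 and 92.1 of TNNI3. TNNI3 was below the other 3 on both scales. The other 4 genes were at most 3.27 CPM per kilobase on the first scale in scramble cells, and TNNI2 was at 0 to 15 counts in each library.

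**Figure D1:**
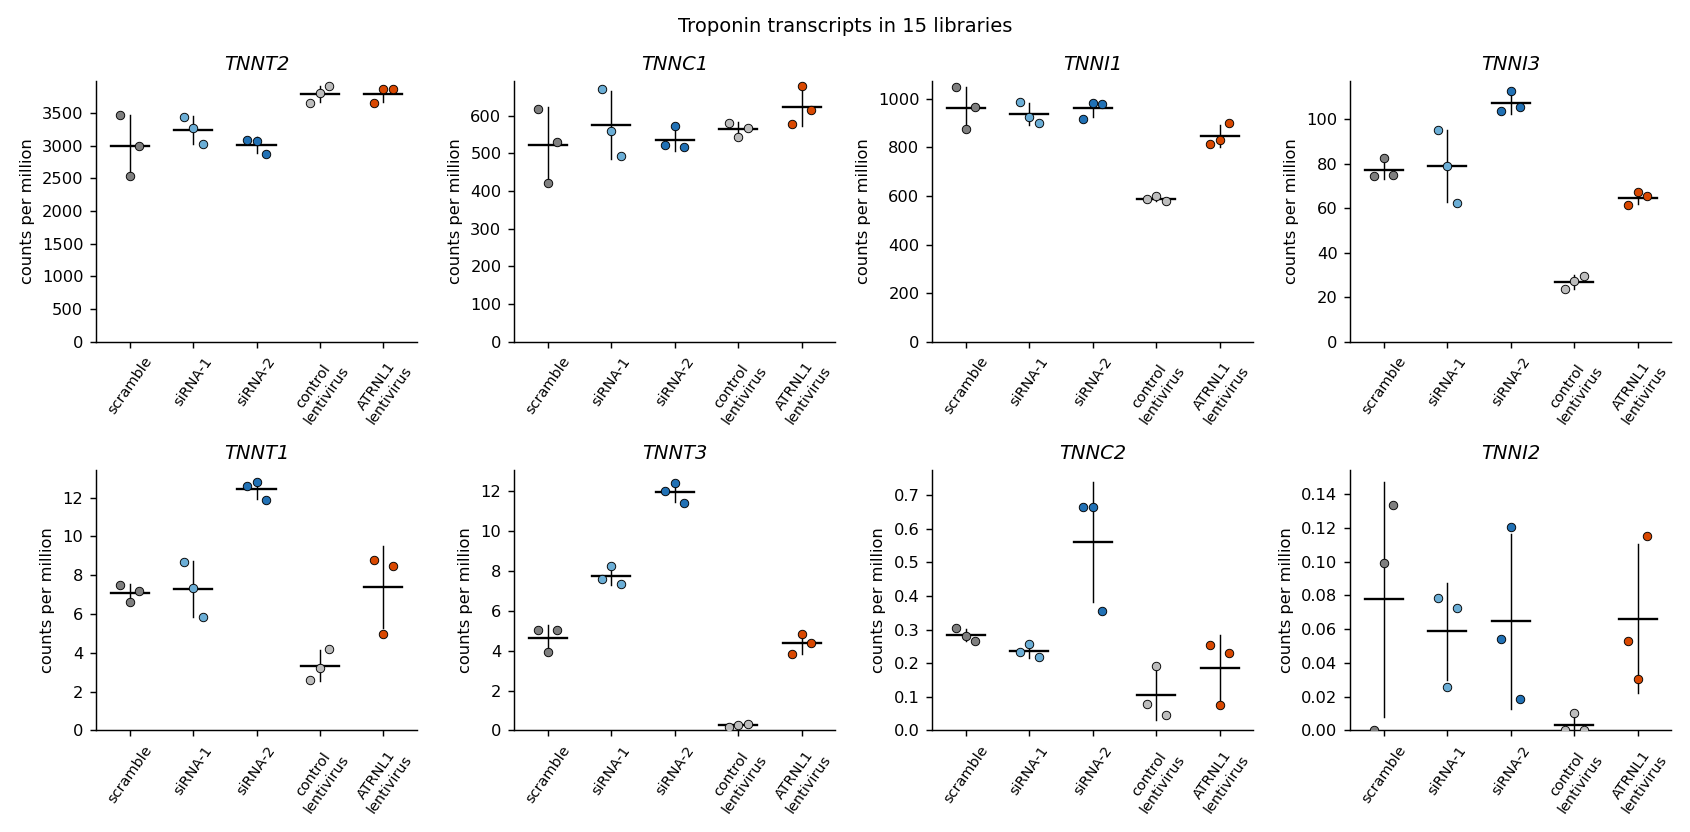
Level in CPM of the 8 troponin genes on the y axis in each library of the 5 groups on the x axis; points are libraries, horizontal lines group means and vertical lines SD, and every y axis starts at 0. TNNT2 and TNNC1 are near level, whereas TNNT3, TNNI3 and TNNT1 are lowest with the control lentivirus and highest with siRNA-2.

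At least 1 member was higher, and none lower, with each siRNA against scramble and with the ATRNL1 lentivirus against its control. Most were lower with the control lentivirus than in scramble. The threshold for a call was an adjusted p (Benjamini-Hochberg) of 0.05 in edgeR's quasi-likelihood test over 24659 genes, which included 7 members and left out TNNI2 for low counts. With siRNA-1, 1 of 7 members was higher than in scramble and none lower, beside 9.61% of all genes called (5.85% higher and 3.76% lower). With siRNA-2, 3 of 7 were higher and none lower, beside 18.1% of all genes (9.64% higher and 8.48% lower). Over the mean of both siRNAs 2 of 7 were higher and none lower, beside 15.7% of all genes (8.57% and 7.12%). Between the siRNAs, 3 of 7 were higher with siRNA-2 and none lower, beside 10.1% of all genes (4.53% and 5.60%). With the ATRNL1 lentivirus, 4 of 7 were higher than with the control lentivirus and none lower, beside 37.1% of all genes (19.1% and 18.0%). With the control lentivirus, 5 of 7 were lower than in scramble and 1 higher, beside 63.6% of all genes (30.3% higher and 33.2% lower). Between the ATRNL1 lentivirus and scramble, 2 of 7 were higher and 2 lower, beside 57.1% of all genes.

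The median log2 fold change of the 7 members was 0.04 with siRNA-1, 0.47 with siRNA-2, 0.65 with the ATRNL1 lentivirus and -1.11 for the control lentivirus against scramble. Over all genes tested it was -0.0064, 0.0027, 0.00058 and -0.06. The 3 libraries of each group did not overlap for 2 of 7 members with siRNA-1 (28.8% of all genes), 4 of 7 with siRNA-2 (36.7%), 4 of 7 between the siRNAs (33.9%), 4 of 7 with the ATRNL1 lentivirus (42.9%) and 6 of 7 for the control lentivirus against scramble (68.5%). The siRNA comparisons share the scramble libraries, which are also the reference for the control lentivirus, and the control lentivirus libraries are the reference for the ATRNL1 lentivirus, so these comparisons are not independent.

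**Figure D2:**
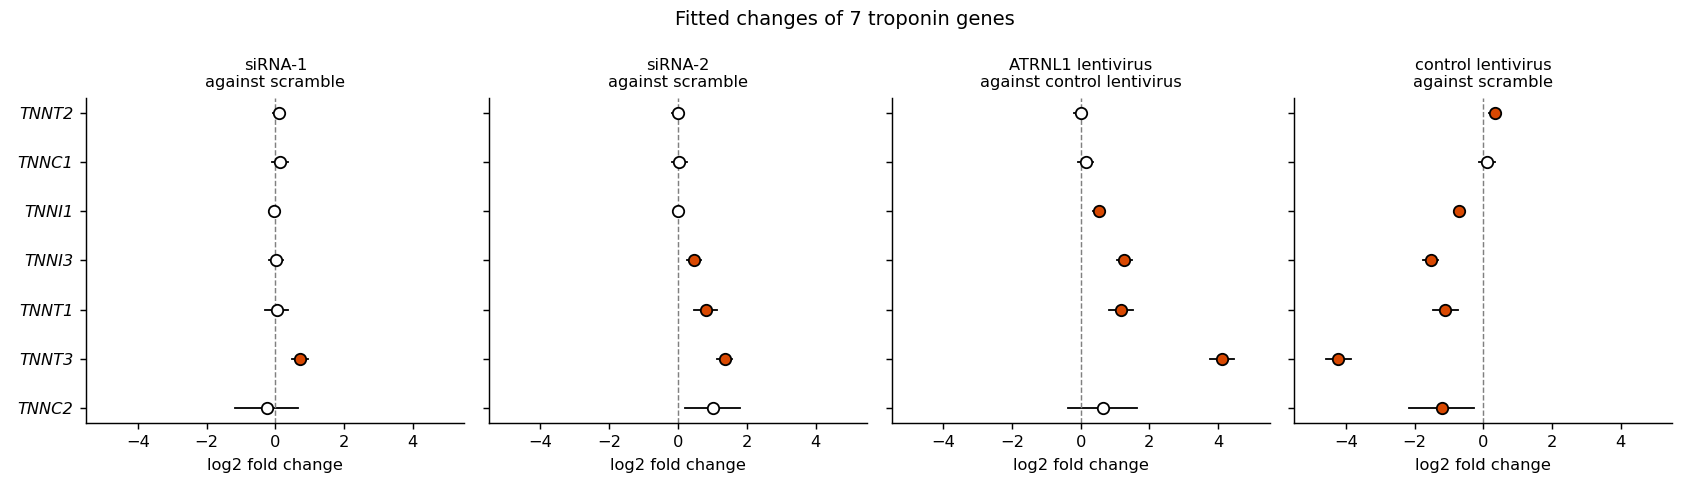
Fitted log2 fold change on the x axis of the 7 tested troponin genes on the y axis in 4 comparisons; bars are 95% confidence intervals, filled points passed an adjusted p of 0.05 and open points did not. TNNT3 was called in each of the 4 comparisons, at 0.73, 1.36, 4.11 and -4.21, while TNNC1 was called in none of them.

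TNNT2, cardiac troponin T, was the most abundant member and did not pass the test under either direction of ATRNL1. It was at 3469, 2528 and 3000.1 CPM in the scramble libraries, at 3435, 3263 and 3019 CPM with siRNA-1 and at 3089, 3067 and 2870 CPM with siRNA-2. The siRNA libraries lay within the range of the scramble libraries. With the control lentivirus it was at 3652, 3804 and 3904 CPM and with the ATRNL1 lentivirus at 3646, 3868 and 3860 CPM, so the lentiviral groups overlapped each other and stood above all siRNA libraries. The log2 fold change was 0.11 with siRNA-1 (95% confidence interval -0.07 to 0.29), 0.0047 with siRNA-2 (-0.18 to 0.19) and 0.0018 with the ATRNL1 lentivirus (-0.18 to 0.18). TNNT2 was 0.34 ± 0.09 (SE) higher with the control lentivirus than in scramble (adjusted p = 0.00184). Scaled by total counts alone, that difference was 0.14 with an adjusted p of 0.0970, and with scramble library 1 as the only scramble library it was 0.10 with an adjusted p of 0.472. Each scramble library was used alone in turn, and such a fit takes its spread from the other groups and assumes that the lone library varies like them. Against scramble library 2 alone, the lowest of the 3, the difference with siRNA-1 was 0.37 (adjusted p = 0.0183).

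TNNT3, fast skeletal troponin T, was the member with the widest range. It was at 5.02, 3.93 and 5.02 CPM in scramble libraries, which is 231, 238 and 563 counts. With siRNA-1 it was at 7.61, 8.22 and 7.35 CPM and with siRNA-2 at 12.0, 12.4 and 11.4 CPM. All siRNA-1 libraries stood above all scramble libraries and all siRNA-2 libraries above all siRNA-1 libraries. TNNT3 rose by 0.73 ± 0.11 on the log2 scale with siRNA-1 (adjusted p = 0.000107) and by 1.36 ± 0.11 with siRNA-2 (4.26e-09). The difference between the siRNAs was itself called, at 0.63 ± 0.11 (adjusted p = 0.000281).

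In the lentiviral cells TNNT3 was at 0.191, 0.263 and 0.303 CPM with the control vector, which is 12, 26 and 13 counts, and at 3.84, 4.85 and 4.39 CPM with the ATRNL1 vector, which is 363, 321 and 228 counts. The ATRNL1 lentivirus thus left TNNT3 17.3-fold higher than its own control, a log2 difference of 4.11 ± 0.18 (adjusted p = 3.75e-15). The control lentivirus was 18.6-fold below scramble (log2 -4.21 ± 0.17, adjusted p = 1.44e-16). ATRNL1 lentiviral cells and scramble cells did not differ by the test (log2 -0.10, 95% confidence interval -0.34 to 0.14). In order, TNNT3 was highest with siRNA-2, then siRNA-1, then scramble and the ATRNL1 lentivirus without a called difference, then the control lentivirus. Leaving out any single library, or using any single scramble library, kept TNNT3 called in the same direction in these comparisons.

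Among markers of skeletal muscle, ACTN3, the fast fibre alpha-actinin, took the same directions as TNNT3, and the other tested markers did not all do so. The 17 markers, of which 7 could be tested, summed to 29.4 to 31.3 CPM in scramble libraries, 37.9 to 42.2 with siRNA-1, 56.3 to 58.7 with siRNA-2, 8.40 to 9.68 with the control lentivirus and 13.9 to 16.9 with the ATRNL1 lentivirus, in the same order as TNNT3 except that scramble stood above the ATRNL1 lentivirus. Most of each sum in the siRNA groups was ACTN3. ACTN3 was at 19.5 ± 0.41 CPM (SD, n = 3) in scramble, 31.2 ± 2.43 with siRNA-1, 45.7 ± 1.53 with siRNA-2, 3.74 ± 0.39 with the control lentivirus and 9.02 ± 1.03 with the ATRNL1 lentivirus. It rose by 0.67 with siRNA-1 (adjusted p = 5.05e-06), by 1.23 with siRNA-2 (2.01e-10) and by 1.25 with the ATRNL1 lentivirus (1.05e-10), and was lower with the control lentivirus than in scramble (log2 -2.37, 5.70e-17).

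Of the 7 tested markers, 2 were higher and none lower with siRNA-1, 3 higher and none lower with siRNA-2, 2 higher and 2 lower with the ATRNL1 lentivirus, and 1 higher and 4 lower with the control lentivirus against scramble. Calls made up 28.6%, 42.9%, 57.1% and 71.4% of the 7, beside 9.61%, 18.1%, 37.1% and 63.6% of all genes. The median log2 fold change of the 7 was 0.25, 0.04, -0.46 and -0.83 in that order. ATP2A1, the calcium pump of fast fibres, rose by 0.51 with siRNA-2 (adjusted p = 0.0120) and fell by 0.46 with the ATRNL1 lentivirus (0.0355). MYH3, the embryonic myosin heavy chain, fell by 0.42 over the mean of both siRNAs (adjusted p = 0.0345). With the control lentivirus against scramble, MYH3 fell by 1.60 (adjusted p = 5.96e-09) and ATP2A1 by 1.05 (1.32e-06), as TNNT3 fell. MYBPC2 was higher by 0.78 over the mean of both siRNAs (adjusted p = 0.00164) and by 0.93 with the ATRNL1 lentivirus (6.92e-05). Its mean was 0.690 CPM in scramble and 1.16 CPM with the control lentivirus. MYOG, a regulator of myoblast differentiation, fell by 1.29 with the ATRNL1 lentivirus (adjusted p = 0.00258) from a mean of 0.427 CPM, while TNNT3 rose there. MYF5 and MYF6, which define skeletal myogenic cells, had 0 counts in all groups, and MYOD1 averaged at most 0.112 CPM in any group. In bulk RNA, more cells of a type and more RNA per cell cannot be told apart, and the part of the skeletal markers in the TNNT3 result was not tested.

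Markers of other cell types also differed between the groups. The 8 smooth muscle markers, some of which heart muscle shares, summed to 344 to 423 CPM in scramble, 326 to 440 with siRNA-1, 512 to 597 with siRNA-2, 755 to 778 with the control lentivirus and 670 to 747 with the ATRNL1 lentivirus. Of these, none was higher and 1 lower with siRNA-1, 5 higher and none lower with siRNA-2, 3 higher and 3 lower with the ATRNL1 lentivirus, and 5 higher and 1 lower with the control lentivirus against scramble, beside the 9.61%, 18.1%, 37.1% and 63.6% of all genes called in either direction. The 8 fibroblast markers summed to 161 to 227 CPM in scramble, 210 to 239 with the siRNAs, 119 to 124 with the control lentivirus and 130 to 164 with the ATRNL1 lentivirus, and all 8 had counts in every group. Endothelial markers summed to 46.1 to 73.2 CPM, epicardial markers to 3.87 to 13.1 CPM and pluripotency markers to 0.173 to 0.517 CPM in single libraries. Of the 6 ventricular markers, 2 were higher with siRNA-1, 3 with siRNA-2 and 5 with the ATRNL1 lentivirus, none lower. With the control lentivirus against scramble 2 were higher and 3 lower. Of the 10 atrial markers, 1, 2, 0 and 5 were higher and 1, 2, 4 and 0 lower in that order. Calls made up 33.3%, 50%, 83.3% and 83.3% of the 6 and 20%, 40%, 40% and 50% of the 10, beside the same 4 shares of all genes. The part of these cells and markers in the troponin results was not tested.

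**Figure D3:**
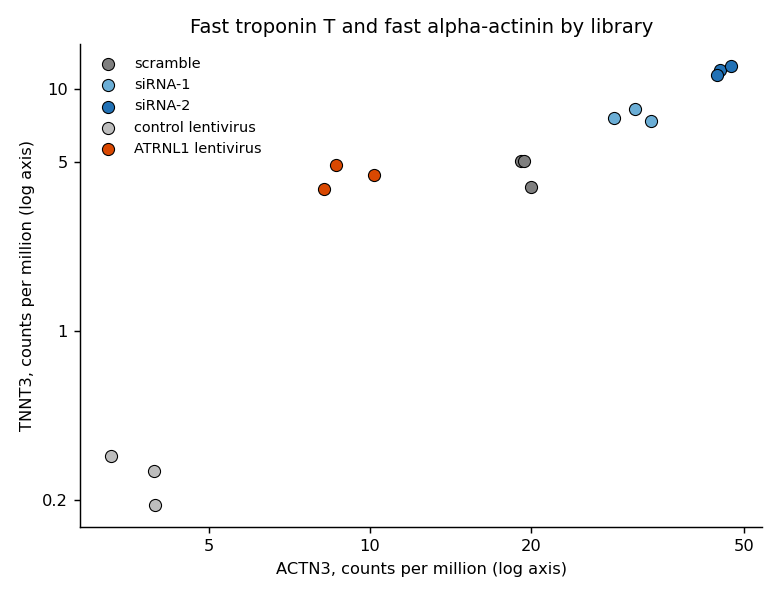
TNNT3 on the y axis against ACTN3 on the x axis, both in CPM on log axes, with a point for each of the 15 libraries and a colour for each group. The groups form separate clusters, with the control lentivirus at 0.191 to 0.303 CPM of TNNT3 and siRNA-2 at 11.4 to 12.4 CPM.

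TNNT1, slow skeletal troponin T, was at 7.51, 6.61 and 7.18 CPM in scramble libraries and at 8.69, 7.34 and 5.82 CPM with siRNA-1, which overlapped. With siRNA-2 it was at 12.6, 12.8 and 11.9 CPM, above every other library. TNNT1 rose by 0.81 ± 0.16 with siRNA-2 (adjusted p = 0.000609) and differed by 0.04 with siRNA-1 (95% confidence interval -0.31 to 0.38). The siRNAs differed from each other by 0.77 ± 0.16 (adjusted p = 0.00228). Over the mean of both siRNAs TNNT1 was called at 0.42 ± 0.14 with an adjusted p of 0.0449. That call was lost without any of 7 of the 9 libraries, among them scramble libraries 2 and 3, against each single scramble library, with DESeq2 and with scaling by total counts. With scramble library 1 as the only control, the siRNA-2 difference was 0.71 with an adjusted p of 0.0524.

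The lentiviral libraries of TNNT1 were at 2.60, 3.24 and 4.18 CPM with the control vector and at 8.80, 4.97 and 8.45 CPM with the ATRNL1 vector. The groups did not overlap, though ATRNL1 library 2 stood closer to the control libraries than to the other two. TNNT1 was 1.17 ± 0.17 higher with the ATRNL1 lentivirus (adjusted p = 5.66e-06) and 1.11 lower with the control lentivirus than in scramble (log2 -1.11 ± 0.17, adjusted p = 4.23e-06). In order, siRNA-2 was highest, then the ATRNL1 lentivirus, siRNA-1 and scramble at 7.41, 7.28 and 7.10 CPM with no called difference between neighbours, then the control lentivirus. Of all genes, 56.1% were called between the ATRNL1 lentivirus and siRNA-2 and 52.6% between it and siRNA-1.

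TNNI1, the fetal and slow form of troponin I, was at 1048, 876 and 966 CPM in scramble libraries, at 987, 927 and 899.7 CPM with siRNA-1 and at 918, 984 and 979 CPM with siRNA-2. These 9 libraries overlapped and no siRNA comparison called the gene. The 95% confidence intervals of the log2 fold change were -0.19 to 0.11 with siRNA-1 and -0.16 to 0.15 with siRNA-2. With the control lentivirus TNNI1 was at 586, 601 and 581 CPM, below every other library, and with the ATRNL1 lentivirus at 815, 828 and 900.0 CPM. It was 0.52 ± 0.07 higher with the ATRNL1 lentivirus than with its control (adjusted p = 2.54e-06), and the control lentivirus was lower than scramble at -0.71 ± 0.07 (4.66e-09). The ATRNL1 lentiviral cells remained below scramble at -0.18 ± 0.07 (adjusted p = 0.0343), in a comparison where 57.1% of all genes were called.

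TNNI3, the troponin I of the adult heart, was at 74.6, 82.4 and 74.9 CPM in scramble libraries and at 95.1, 79.0 and 62.5 CPM with siRNA-1. The siRNA-1 libraries reached above and below all scramble libraries. With siRNA-2 it was at 104, 113 and 105 CPM, above all other libraries. TNNI3 rose by 0.47 ± 0.10 with siRNA-2 (adjusted p = 0.00138), and siRNA-2 exceeded siRNA-1 by 0.44 ± 0.10 (0.00471). Against scramble library 2 alone the siRNA-2 difference was 0.38 with an adjusted p of 0.0796, and without siRNA-1 library 3 the difference between siRNAs was 0.29 with an adjusted p of 0.0656.

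With the control lentivirus TNNI3 was at 23.6, 27.4 and 29.6 CPM, and with the ATRNL1 lentivirus at 61.4, 67.3 and 65.6 CPM, without overlap. TNNI3 was 2.41-fold higher with the ATRNL1 lentivirus (log2 1.27 ± 0.10, adjusted p = 4.03e-10). The control lentivirus was 2.88-fold below scramble (log2 -1.53 ± 0.11, adjusted p = 2.14e-12). ATRNL1 lentiviral cells were below scramble cells at -0.26 ± 0.10 (adjusted p = 0.0341). The order was siRNA-2, then siRNA-1 and scramble without a called difference, then the ATRNL1 lentivirus, then the control lentivirus.

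TNNI2, fast skeletal troponin I, was close to the detection limit. The 3 libraries of a group together had 21 counts in scramble, 9 with siRNA-1, 13 with siRNA-2, 1 with the control lentivirus and 13 with the ATRNL1 lentivirus. A group at 0 counts would still allow a level of up to 3 counts, or 0.0137 to 0.0207 CPM, from counting error alone. Its neighbour on the same chromosome, TNNT3, had 228 to 883 counts in each library outside the control lentivirus.

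TNNC1, the troponin C of heart and slow muscle, was at 618, 422 and 529 CPM in scramble libraries, at 671, 560 and 493 CPM with siRNA-1 and at 521, 572 and 516 CPM with siRNA-2. It was at 580, 543 and 568 CPM with the control lentivirus and at 578, 679 and 615 CPM with the ATRNL1 lentivirus. All groups overlapped with scramble, and none of the comparisons of siRNA or lentivirus with its own control called the gene. The largest of these differences was 0.15 for the ATRNL1 lentivirus (95% confidence interval -0.08 to 0.37). Between ATRNL1 lentivirus and scramble it was called at 0.25 ± 0.11 (adjusted p = 0.0471). Against scramble library 2 alone, the lowest of that group, the difference in TNNC1 was 0.46 with siRNA-1 (adjusted p = 0.0164) and 0.40 with the control lentivirus (adjusted p = 0.00844), under the same assumption.

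TNNC2, fast skeletal troponin C, rested on 2 to 49 counts per library. It was at 0.304, 0.281 and 0.267 CPM in scramble, at 0.235, 0.259 and 0.218 CPM with siRNA-1 and at 0.666, 0.664 and 0.356 CPM with siRNA-2. The siRNA-2 libraries stood above all other libraries, but the difference from scramble of 1.01 ± 0.39 did not pass the test (adjusted p = 0.0759). Fitted on the siRNA-2 and scramble libraries only, its adjusted p was 0.0336. It was at 0.0797, 0.192 and 0.0467 CPM with the control lentivirus and at 0.254, 0.0756 and 0.231 CPM with the ATRNL1 lentivirus, which overlapped. The control lentivirus was lower than scramble at -1.21 ± 0.46 (adjusted p = 0.0253), a call lost without control lentivirus library 1 (adjusted p = 0.0885) or 3 (0.0812) and against each scramble library alone (0.110 to 0.122).

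The shift in the ratio of TNNI1 to TNNI3 followed TNNI3 in the siRNA-2 cells, where TNNI1 was not called. In the lentiviral comparisons both genes changed in the same direction and TNNI3 changed more, so TNNI1 offset part of the shift. Log2 changes were 0.52 for TNNI1 and 1.27 for TNNI3 with the ATRNL1 lentivirus against its control. They were -0.71 and -1.53 with the control lentivirus against scramble. There were 14.0, 10.6 and 12.9 TNNI1 counts for each TNNI3 count in scramble libraries, 10.4, 11.7 and 14.4 with siRNA-1 and 8.85, 8.73 and 9.31 with siRNA-2. All siRNA-2 libraries stood below all scramble and siRNA-1 libraries. The ratio was 24.9, 21.9 and 19.6 with the control lentivirus and 13.3, 12.3 and 13.7 with the ATRNL1 lentivirus. The control lentivirus had the highest ratio of any group, and the ATRNL1 lentivirus lay within the range of scramble.

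On the log2 scale the ratio differed from scramble by -0.04 ± 0.18 (SE) with siRNA-1 and by -0.47 ± 0.12 with siRNA-2. It was 0.75 lower with the ATRNL1 lentivirus than with its control (-0.75 ± 0.11) and 0.82 ± 0.15 higher with the control lentivirus than in scramble. The exact two-sided permutation p was 0.90 for siRNA-1 and 0.10 for the other three, which is the smallest that 3 libraries against 3 can give, so none could pass 0.05. After adjustment over the 24 ratio tests these were 0.90 and 0.13. For both siRNAs pooled against scramble the exact permutation p was 0.214 (6 against 3 libraries, log2 difference -0.26 ± 0.17). Pooling takes the 6 libraries as 1 group, although siRNA-2 differed from siRNA-1 in this log2 ratio by -0.43 ± 0.14 without overlap. The ratios are of counts and are not corrected for length.

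**Figure D4:**
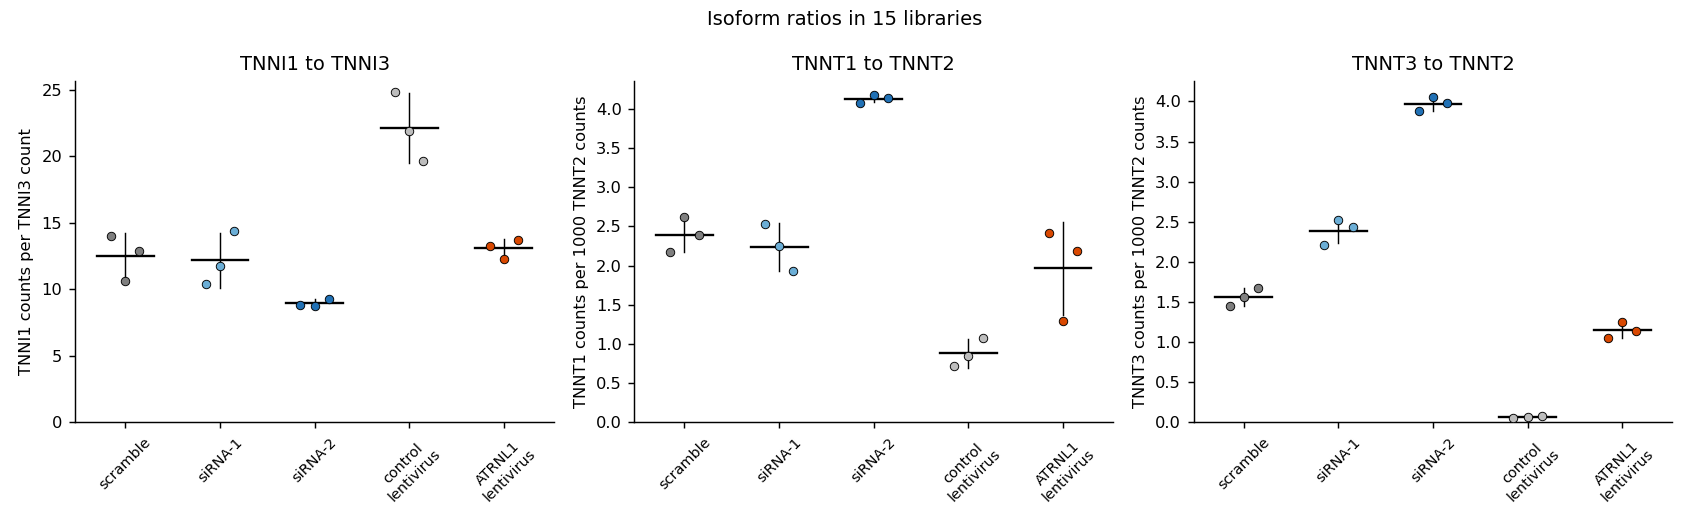
Ratios of counts in each library (points) with group mean and SD (lines) on y axes that start at 0: TNNI1 per TNNI3, TNNT1 per 1000 TNNT2 and TNNT3 per 1000 TNNT2, by group on the x axis. The control lentivirus has the highest TNNI1 to TNNI3 ratio, at 19.6 to 24.9, and the lowest of both troponin T ratios.

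Within troponin T, the skeletal forms stayed a small share. TNNT1 counts per 1000 TNNT2 counts were 2.39 ± 0.23 (SD, n = 3) in scramble, 2.24 ± 0.30 with siRNA-1 and 4.13 ± 0.05 with siRNA-2. They were 0.878 ± 0.180 with the control lentivirus and 1.96 ± 0.60 with the ATRNL1 lentivirus. TNNT3 counts per 1000 TNNT2 counts were 1.56 ± 0.11, 2.39 ± 0.16 and 3.97 ± 0.08 in the siRNA groups in the same order, and 0.0664 ± 0.0129 and 1.15 ± 0.10 in the lentiviral groups. For the 6 libraries of both siRNAs against 3 scramble libraries, the mean log2 ratio of TNNT3 to TNNT2 was 0.98 ± 0.18 higher, and all 6 libraries stood above scramble (exact permutation p = 0.0238, the smallest possible, adjusted 0.13). This test takes the 6 libraries as 1 group, although siRNA-2 exceeded siRNA-1 in this log2 ratio by 0.73 ± 0.06 without overlap. TNNC2 per 1000 TNNC1 counts was between 0.191 ± 0.144 with the control lentivirus and 1.04 ± 0.31 with siRNA-2.

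The overexpression effect was set against the mean knockdown effect in the same fit. The effect of the ATRNL1 lentivirus exceeded that of the siRNAs by 3.07 ± 0.21 for TNNT3 (adjusted p = 3.55e-11), 1.02 ± 0.14 for TNNI3 (1.54e-06), 0.75 ± 0.22 for TNNT1 (0.0109) and 0.55 ± 0.10 for TNNI1 (7.74e-05), which is 4 of 7 members, all higher, beside 32.0% of all genes (16.5% higher and 15.5% lower). TNNT2, TNNC1 and TNNC2 had no called difference. ATRNL1 itself moved in opposite directions in the 2 arms, by -1.18 and 4.77, while TNNT3 was called higher in both. Delivery by lentivirus or siRNA and the level of ATRNL1 cannot be told apart in this contrast. The TNNT1 call was lost without ATRNL1 lentivirus library 1 (0.60, adjusted p = 0.0574) and against scramble library 2 alone (0.66, adjusted p = 0.0628).

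Control lentivirus and scramble differ in delivery, selection and any difference of culture, which cannot be told apart. When library size was set by total counts alone, the median log2 fold change of all genes in that comparison went from -0.06 to -0.26. In the main fit TNNT3, TNNI3, TNNC2, TNNT1 and TNNI1 changed by -4.21, -1.53, -1.21, -1.11 and -0.71. By absolute change they ranked 102, 3836, 5808, 6705 and 11305 of 24659 genes, whose median absolute change was 0.64. TNNT2, at 0.34, and TNNC1, at 0.11, were below that median.

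The genes beside the troponin loci changed in both directions. Of 22 such genes, 18 were tested, and 3 were higher and 3 lower with siRNA-1, 2 higher and 2 lower with siRNA-2, 8 higher and 2 lower with the ATRNL1 lentivirus and 2 higher and 13 lower with the control lentivirus against scramble. The calls were 33.3%, 22.2%, 55.6% and 83.3% of the 18, beside 9.61%, 18.1%, 37.1% and 63.6% of all genes. Their median log2 fold changes were -0.06, 0.15, 0.19 and -0.82. CSRP1, near TNNT2 and TNNI1, was lower with the ATRNL1 lentivirus (log2 -0.90, adjusted p = 2.14e-06) and higher with the control lentivirus than in scramble (0.72, 1.63e-05). UBE2C, near TNNC2, was likewise lower with the ATRNL1 lentivirus (log2 -0.56, adjusted p = 3.88e-05) and higher with the control lentivirus (2.12, 2.66e-15). DNAAF3, a dynein assembly factor beyond TNNI3 on the side away from TNNT1, was at 1.76 ± 0.10 CPM in scramble, 3.30 ± 0.77 with siRNA-1 and 5.08 ± 0.51 with siRNA-2. It rose by 0.91 ± 0.18 (adjusted p = 0.00160) and 1.53 ± 0.18 (6.29e-07), and by 0.79 ± 0.18 with the ATRNL1 lentivirus (0.000898). The control lentivirus did not differ from scramble by the test for DNAAF3 (0.15 ± 0.19, adjusted p = 0.489), whereas TNNI3 and TNNT1 fell there.

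PTPRH, a receptor tyrosine phosphatase further out on the same side, rose by 0.83 ± 0.14 with siRNA-1 (adjusted p = 0.000282), 1.17 ± 0.14 with siRNA-2 (9.84e-07) and 0.97 ± 0.15 under ATRNL1 overexpression (1.06e-05). PTPRH was lower with the control lentivirus than in scramble (log2 -0.89, 1.24e-05). PPP1R12C, on the side of TNNT1, was at 47.1 ± 2.06 CPM in scramble and was lower with siRNA-1 (-0.34 ± 0.09, adjusted p = 0.0145) and with the control lentivirus (-1.19 ± 0.09, 1.60e-11). PPP1R12C did not pass the test with siRNA-2 or with the ATRNL1 lentivirus (adjusted p = 0.0708 and 0.160), where TNNT1 rose. LAD1, which overlaps TNNT2, rose by 0.55 ± 0.12 with the ATRNL1 lentivirus (adjusted p = 0.000655), where TNNT2 did not. LSP1, between TNNI2 and TNNT3, had 0 counts in 4 of the groups.

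**Figure D5:**
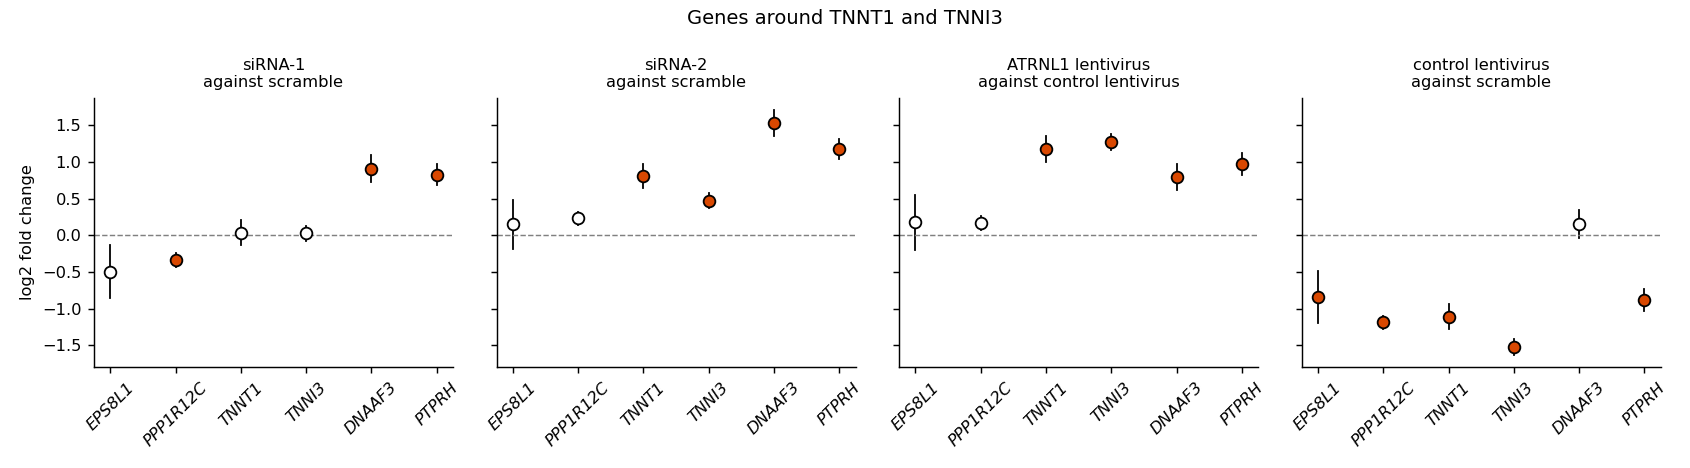
Fitted log2 fold change on the y axis of 6 genes in their order along the chromosome on the x axis, in 4 comparisons; bars are SE, filled points passed an adjusted p of 0.05 and open points did not. DNAAF3 and PTPRH rose with both siRNAs, whereas TNNT1 and TNNI3 were called with siRNA-2 and not with siRNA-1.

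The partners of troponin on the thin filament changed in both directions. Of 19 tested among 20, 3 were higher and 1 lower with siRNA-1, 9 higher and 3 lower with siRNA-2, 6 higher and 7 lower with the ATRNL1 lentivirus and 13 higher and 2 lower with the control lentivirus against scramble. Calls made up 21.1%, 63.2%, 68.4% and 78.9% of the 19, beside 9.61%, 18.1%, 37.1% and 63.6% of all genes. Their median log2 fold change was 0.09, 0.13, -0.03 and 0.71 in that order, beside the medians near 0 over all genes given above. LMOD3, a leiomodin that nucleates actin, rose by 0.92 ± 0.09 both with siRNA-1 (adjusted p = 2.88e-07) and with the ATRNL1 lentivirus (7.54e-09). Its mean was 23.7 CPM in scramble and 40.9 CPM with the control lentivirus. ACTA1, skeletal alpha-actin, rose by 0.77 ± 0.12 with siRNA-2 (3.94e-05) and by 0.79 ± 0.12 with the ATRNL1 lentivirus (8.60e-06). TPM2, beta-tropomyosin, went from 252 ± 8.96 to 368 ± 8.33 CPM with siRNA-2 (0.54 ± 0.09, adjusted p = 0.000143). With the control lentivirus TPM2 was at 357 ± 25.7 CPM. NEB, nebulin, fell by 0.58 with siRNA-1 (0.000774) and by 0.91 with the ATRNL1 lentivirus (1.59e-07).

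Among 14 thick filament genes, 4 were higher and 1 lower with siRNA-1, 5 higher and 2 lower with siRNA-2, 5 and 5 with the ATRNL1 lentivirus, and 7 and 3 with the control lentivirus against scramble, with medians of 0.09, 0.09, 0.17 and 0.30. Calls made up 35.7%, 50%, 71.4% and 71.4% of the 14, beside 9.61%, 18.1%, 37.1% and 63.6% of all genes. MYH7, the slow and ventricular myosin heavy chain, rose by 0.49 ± 0.08 with siRNA-1 (adjusted p = 0.000257) and by 0.83 ± 0.08 with siRNA-2 (8.82e-08). MYL2, the ventricular regulatory light chain, rose by 0.45 ± 0.11 (0.00583) and 0.74 ± 0.11 (1.45e-05) with the siRNAs and by 0.88 ± 0.11 (2.73e-07) with the ATRNL1 lentivirus. With the control lentivirus against scramble, MYH7 was higher by 0.83 ± 0.08 (2.21e-09) and MYL2 by 0.87 ± 0.11 (8.27e-08). MYH7B fell by 2.51 with the control lentivirus against scramble (1.46e-15) and rose by 1.10 ± 0.11 with the ATRNL1 lentivirus (1.84e-08). In these lentiviral comparisons TNNT3, TNNI3 and TNNT1 took the same directions. For MYH7B the overexpression effect exceeded the mean siRNA effect by 1.21 ± 0.15, so the fitted mean siRNA effect was below 0. TNNT3 rose by 1.04 over the mean of both siRNAs.

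Among 17 transcription factors of muscle genes, 2 were higher and none lower with siRNA-1, 3 higher and 3 lower with siRNA-2, 12 higher and 4 lower with the ATRNL1 lentivirus, and 7 higher and 8 lower with the control lentivirus against scramble. These calls were 11.8%, 35.3%, 94.1% and 88.2% of the 17, beside 9.61%, 18.1%, 37.1% and 63.6% of all genes. Their medians were 0.11, -0.04, 0.26 and -0.02 over the 17 genes. ESRRA, an estrogen-related receptor active in oxidative muscle, fell by 3.12 with the control lentivirus, from 31.5 ± 1.23 to 3.57 ± 0.42 CPM (adjusted p = 7.98e-18). With the ATRNL1 lentivirus it was at 8.51 ± 1.33 CPM, higher than the control by 1.23 ± 0.11 (2.32e-09). GATA4 fell by 0.97 with the control lentivirus (1.10e-11), and MEF2C by 0.57 with siRNA-2 (2.25e-06).

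Splicing factors and enzymes that act on troponin were also counted. Of 11 splicing factors of TNNT2, 2 were higher and 1 lower with each siRNA, 4 higher and 1 lower with the ATRNL1 lentivirus, and 7 higher and 3 lower with the control lentivirus against scramble, with medians of 0.12, 0.11, 0.14 and 0.52. Calls made up 27.3%, 27.3%, 45.5% and 90.9% of the 11, beside 9.61%, 18.1%, 37.1% and 63.6% of all genes. RBFOX2, which binds introns of muscle transcripts, rose by 0.63 ± 0.07 with siRNA-1 (adjusted p = 2.72e-06) and 0.75 ± 0.07 with siRNA-2 (6.25e-08). It rose further, by 1.17 ± 0.07, with the control lentivirus against scramble (4.46e-13). Gene counts do not show which exons of TNNT2 were used. Of 16 kinases and phosphatases, 4 were higher and 1 lower with siRNA-1, 5 higher and 1 lower with siRNA-2, 5 higher and 5 lower with the ATRNL1 lentivirus, and 12 higher and 3 lower with the control lentivirus against scramble, with medians of 0.11, 0.08, -0.04 and 0.71. Calls made up 31.2%, 37.5%, 62.5% and 93.8% of the 16, beside the same 4 shares of all genes. PRKG1, the cyclic GMP dependent kinase, rose by 0.52 ± 0.09 (0.000346) and 0.58 ± 0.09 (3.46e-05) with the siRNAs. With the control lentivirus against scramble PRKG1 rose by 1.10 ± 0.09 (4.53e-11). TNNI3K, a kinase named for its binding to TNNI3, fell by 0.88 with the ATRNL1 lentivirus (1.70e-05) and was 1.49 higher with the control lentivirus than in scramble (2.19e-09).

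Profiles like those of the members were sought over the 15 libraries among genes at 10 CPM or more, by the root-mean-square difference of log2 CPM after each gene's own mean was taken off. For TNNI3 the nearest of 9347 genes were PITPNM2 (0.16), SLC12A7 (0.18) and DPYSL4 (0.19), against a root-mean-square deviation of TNNI3 itself of 0.69. TNNI3 ranked among the nearest 3 for its neighbour TNNT1, at 0.27, beside PLA2G15 (0.27) and FLCN (0.27), against 0.65 for TNNT1 itself. For TNNT3 the nearest were ARHGAP45 (0.70), NDRG1 (0.73) and NMB (0.73), against 1.91 for TNNT3 itself. The distances are not scaled by a member's own deviation, so they cannot be compared between members. For TNNC2 the nearest were EXTL1, TSEN54 and PLXND1, at 0.45 to 0.46 against 0.85. These distances share the libraries and the 5 group means and are given as a description.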

How the data were processed

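The data were 1 table of whole-number counts for each gene in 15 libraries, deposited by the authors as raw counts. The submitters' processing notes name GRCh 38, STAR 2.7.9a and DESeq2 1.30.1 without saying what each did. The labels' protocols describe ribosomal depletion, while their molecule field has polyA RNA. How reads were counted, with or without strand, and how shared reads were treated is not given in the sources used here. Column names gave each library's group only, so library numbers follow column order and pair nothing. Identifiers matched GENCODE release 29 in 58780 rows. The other 649 rows, with a bare number as identifier, held 0.00157% to 0.00437% of counts and were left out.

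Genes were kept with filterByExpr by group in edgeR 4.0.16 under R 4.3.3 and scaled with TMM factors. One quasi-likelihood fit took all 15 libraries with a mean for each of the 5 groups, and p-values were adjusted by Benjamini-Hochberg over 24659 genes. Every adjusted p of a single gene is from this fit unless another is named. CPM used TMM-scaled library sizes, and SE is the log2 fold change over the square root of F. The fit was tested on simulated data, with recall required only of genes at 10 CPM or more, a limit set after a first trial. TNNT1, TNNT3 and TNNC2 were mostly below that level, so a missed threshold there does not show that a difference was absent. Ratios of counts were compared by exact two-sided permutation tests.

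The members, lists and comparisons were chosen with earlier results of these data known. All members were named, and from each list up to 4 called genes per comparison at a mean of 1 CPM or more with the largest change, besides defining markers. The TNNT3 ratios, the comparisons used only to order the groups, the shortest-transcript lengths and the motifs were chosen after seeing the data. Alternatives were DESeq2 1.42.0 as the test or for size factors, total counts as library sizes, no filter on low counts, only the compared groups in the fit, each library left out, each scramble library as the sole control and a pseudocount of 10 counts for ratios. The number of libraries limits precision, and intervals from counts cover counting error only.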

Additional observations from a re-analysis of the deposited data

Results flagged for a closer look

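The effects of the siRNAs, which share the target ATRNL1 and the scramble controls, differed from each other for 3 members, in edgeR's test of the difference, adjusted by Benjamini-Hochberg over all genes. With siRNA-2 rather than siRNA-1, TNNT1 was higher by 0.77 (adjusted p = 0.00228), TNNT3 by 0.63 (0.000281) and TNNI3 by 0.44 (0.00471), on the log2 scale and in 3 of 3 libraries each. ATRNL1 itself was lower with siRNA-2 by a further 0.87 (log2 -0.87, adjusted p = 2.61e-05), and the part of that depth of knockdown in these differences was not tested.

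The effect of overexpression differed from the mean effect of the siRNAs for 4 members. The difference was 3.07 for TNNT3 (adjusted p = 3.55e-11), 1.02 for TNNI3 (1.54e-06), 0.75 for TNNT1 (0.0109) and 0.55 for TNNI1 (7.74e-05). For TNNT3 both effects were called and had the same sign, although ATRNL1 moved in opposite directions. For TNNT1 the mean siRNA effect had an adjusted p of 0.0449, from 0.04 with siRNA-1 and 0.81 with siRNA-2, and lost its call without any of 7 of the 9 libraries, with DESeq2 and with scaling by total counts.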

How the results depend on the processing

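No paired analysis was possible because the columns carry no replicate number that the labels tie to a sample. Of the counts of called members and the TNNI1 to TNNI3 ratios, 136 values under the alternatives stayed within 1.5 times of the main count or kept the direction of the ratio and its side of 0.05. Within that tolerance, over all alternatives, the counts ran from 2 to 4 with siRNA-2 and between the siRNAs (both 3), from 4 to 5 with the ATRNL1 lentivirus (4), from 4 to 7 for the control lentivirus against scramble (6) and from 3 to 4 for overexpression minus knockdown (4). For every ratio compared with 3 libraries against 3, the exact permutation p could not go below 0.10. Keeping its side of 0.05 was therefore fixed in advance in those comparisons, and only the direction could change. The log2 TNNI1 to TNNI3 ratio over both siRNAs, -0.26, ran from -0.372 to -0.171 with single libraries left out. The count with siRNA-1 went from 1 to 3 against scramble library 2 alone. The count for the mean of both siRNAs went from 2 to 1 with DESeq2 and against scramble library 1 or 3 alone, and ran from 1 to 3 when single libraries were left out. Wherever it was 1, TNNT1 was not called. The TNNI1 to TNNI3 ratio of siRNA-1 against scramble, -0.04 on the log2 scale, turned to 0.043 without scramble library 1 and 0.064 without siRNA-1 library 1, and ran from -0.172 to 0.064 with single libraries left out. The TNNT1 to TNNT2 ratio in that comparison, -0.10, ran from -0.195 to 0.000373 with single libraries left out and turned without siRNA-1 library 3. The causes were not tested. Among single members and the other ratios, 813 values stayed called or stayed not called, 27 lost a call and 15 gained one. The 813 include members without a call in the main fit. They also include ratios of 3 libraries against 3, which could not be called. The log2 ratio of TNNT3 to TNNT2 over both siRNAs, with a scramble library left out, had an exact permutation p of 0.0714, the smallest that 6 libraries against 2 can give. Counts of 2 to 49 per library limit TNNC2, and TNNI2 could not be tested.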
